A study of Mus musculus with 14 samples.

Results

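The genes described here are 10 members of the VEGF, PDGF and angiopoietin families: the ligands Vegfa, Vegfb and Vegfc, the ligands Pdgfa, Pdgfb and Pdgfc, the receptors Pdgfra and Pdgfrb, and the ligands Angpt1 and Angpt2. They were taken by gene symbol from the 30503 genes of the count table, and all 10 were found. Of these, 9 passed the filter on low counts and were tested among 17358 genes, and Pdgfb did not pass it. Bulk RNA-seq had been performed on 14 cultures of mouse femoral skeletal cells, each grown from a single tdTomato+ cell. The Fgfr3-WT (P23) group held 5 clones of the genotype Fgfr3-creER; R26R(tdTomato/+), isolated at postnatal day 23 and harvested at passage 8. The Fgfr3-p53 cKO (P28) group held 5 clones of the genotype Fgfr3-creER; Trp53fl/fl; R26R(tdTomato/+), isolated at postnatal day 28 and harvested at passage 8. The Fgfr3-p53 cKO (P4M) group held 4 clones of that same genotype, isolated at 4 months and harvested at passage 6 to 8. Every mouse, those of the Fgfr3-WT group included, carried Fgfr3-creER and the reporter and had received tamoxifen at day 21, so Cre was active in cells that expressed Fgfr3 at that time and the descendants of those cells are the material. A value stands for a clone that had survived serial passage, and the labels do not tie clones to separate mice. P values therefore measure the spread between clones.

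VEGF ligands bind receptor tyrosine kinases on endothelial cells and drive the sprouting and permeability of vessels, and in bone they couple vessel ingrowth to bone formation. PDGF ligands act as disulphide-linked dimers on the receptors PDGFRα and PDGFRβ, which are carried by mesenchymal cells, pericytes and smooth muscle cells. The angiopoietins are ligands of the endothelial receptor TIE2, encoded by Tek. ANGPT1, made by perivascular and stromal cells, activates the receptor and stabilizes vessels, whereas ANGPT2 is made mainly by endothelial cells and can oppose it. Stromal cells of the bone marrow are thus known as senders of VEGF-A and ANGPT1 and as receivers of PDGF.

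Trp53, the gene deleted in the cKO clones, lay between 49.9 and 68.2 CPM, the count scaled to the TMM-adjusted library size, in the Fgfr3-WT clones and between 1.72 and 2.84 CPM in the cKO clones. Total counts per clone lay between 25688946 and 52857424, so that 3 counts, the limit that a count of 0 allows, corresponded to 0.0564 to 0.121 CPM. Such limits cover counting error only, because amplified reads without molecular identifiers are not independent molecules. All Fgfr3-WT libraries carry submission number 1303 and all cKO libraries 2963, so genotype and submission cannot be told apart. The comparison of P4M with P28 clones lies within submission 2963, but age at isolation and passage differ together there. Of the stromal markers, Vim was present in every clone, at 1430 to 6430 CPM. Col1a2 ranged from 0.0326 to 4350 CPM among the Fgfr3-WT clones and from 7790 to 33300 CPM among the cKO clones. The lowest Fgfr3-WT values of Col1a2, Col3a1 and Lum, at 0.0326, 0.13 and 0.0977 CPM, all came from replicate 1. That clone also had the highest Fgfr3-WT values of Pdgfra, Pdgfrb and Angpt2, and it enters every comparison with Fgfr3-WT. Thy1, which also marks stromal cells, did not exceed 4.67 CPM in the Fgfr3-WT and 0.0198 CPM in the P4M clones. In the P28 clones it ranged from 0 to 34.0 CPM. Lum reached 227 CPM in Fgfr3-WT, against at most 6.25 CPM in P28 and 1.69 CPM in P4M clones. Of the 9 stromal markers, all tested, none was higher and 1 was lower in P28 than in Fgfr3-WT clones. In P4M clones 1 was higher and 2 were lower. Of all genes, 38.9% were called in P28 and 45.9% in P4M against Fgfr3-WT. The endothelial genes Cdh5, Cldn5 and Tie1 were at 0 in every library, and Ptprc, which marks blood cells, stayed at or below 0.154 CPM. The summed level of 9 blood cell markers was nevertheless 16.5 to 145 CPM in Fgfr3-WT, 3.47 to 22.3 CPM in P28 and 5.09 to 9.19 CPM in P4M clones. In the Fgfr3-WT clones it included Lyz2, at 12.7 to 90.6 CPM, and Cd68, at 3.55 to 54.3 CPM. Of the 3 blood cell markers tested, 2 were lower in each cKO group and 1 was higher in the P28 clones. Csf1r, the tested marker besides Lyz2 and Cd68, was at 0.0792 to 0.607 CPM in Fgfr3-WT and 0.215 to 1.46 CPM in P28 clones. The part of these markers in the results was not tested. In bulk RNA, fewer cells of a kind and less RNA per cell cannot be told apart.

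For the 2 ligand genes that differed between groups and whose promoter window holds no annotated exon, the 250 bases before the transcription start are shown, from RefSeq on GRCm38.p6 and written 5′ to 3′ along the gene's strand. The Vegfa window is chr17:46032378-46032627 on the minus strand. The Pdgfc window is chr3:81036166-81036415 on the plus strand. Capitals mark the GC box GGGCGG, to which factors of the Sp family bind.
Vegfa: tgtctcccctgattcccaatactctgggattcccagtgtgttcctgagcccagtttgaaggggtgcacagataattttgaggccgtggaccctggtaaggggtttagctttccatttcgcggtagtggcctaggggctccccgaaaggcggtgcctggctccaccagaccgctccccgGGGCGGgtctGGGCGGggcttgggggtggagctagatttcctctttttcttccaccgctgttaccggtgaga
Pdgfc: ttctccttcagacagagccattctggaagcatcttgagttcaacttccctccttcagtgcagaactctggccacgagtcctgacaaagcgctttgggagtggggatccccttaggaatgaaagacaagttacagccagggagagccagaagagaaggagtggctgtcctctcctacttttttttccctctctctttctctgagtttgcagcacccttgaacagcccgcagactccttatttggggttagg
The Vegfa window held 2 GC boxes and had a GC content of 59.2%, and that of Pdgfc held none at a GC content of 50.8%. Neither window held ACGTG, a core of the hypoxia response element. Nor did either hold the related core, GCGTG, in either orientation. Both strands were searched, and bases further upstream were not. Of 32851 windows of this length, the GC box was found in 32.7%, the first of these cores in 16.6% and the second in 28.2%. A TATA box, searched as TATAAA, was also absent from both windows and was found in 12.4% of all windows. An AP-1 site, searched as TGANTCA, was absent from both and was found in 6.75%. A second Vegfa window, chr17:46025164-46025413, held 1 ACGTG and 1 GCGTG. It is not shown because it overlaps an annotated exon of Vegfa, as both Pdgfa windows do of Pdgfa. RefSeq windows were matched for 6 of the 10 genes, and those of Vegfb, Vegfc and Pdgfra held 4, 2 and 0 GC boxes.

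Set against each other per length of transcript, in the deposited TPM values, the 10 genes covered a wide range of levels. In the Fgfr3-WT (P23) clones the order of median TPM ran from Vegfa (115) over Pdgfrb (87.7), Vegfb (67.3), Pdgfa (39.6), Pdgfc (16.4), Pdgfra (8.46), Angpt1 (3.5), Vegfc (2.12) and Angpt2 (0.14) to Pdgfb, whose median was 0. Ranges over the clones overlapped between neighbours in that order, except between Pdgfa and Pdgfc and between Vegfc and Angpt2. In the Fgfr3-p53 cKO (P28) clones Pdgfrb stood first, at a median of 141 TPM, followed by Vegfa at 59.9 TPM, and Pdgfrb exceeded Vegfa in 5 of 5 clones. Ranges of all neighbours in the order of the P28 clones overlapped. In the Fgfr3-p53 cKO (P4M) clones Pdgfa stood first, at a median of 149 TPM, above Vegfa at 119, Pdgfrb at 84.2 and Pdgfc at 72.9 TPM, and the ranges of these neighbours overlapped. Pdgfb and Angpt2 had the lowest levels in all 3 groups.

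**Figure D1:**
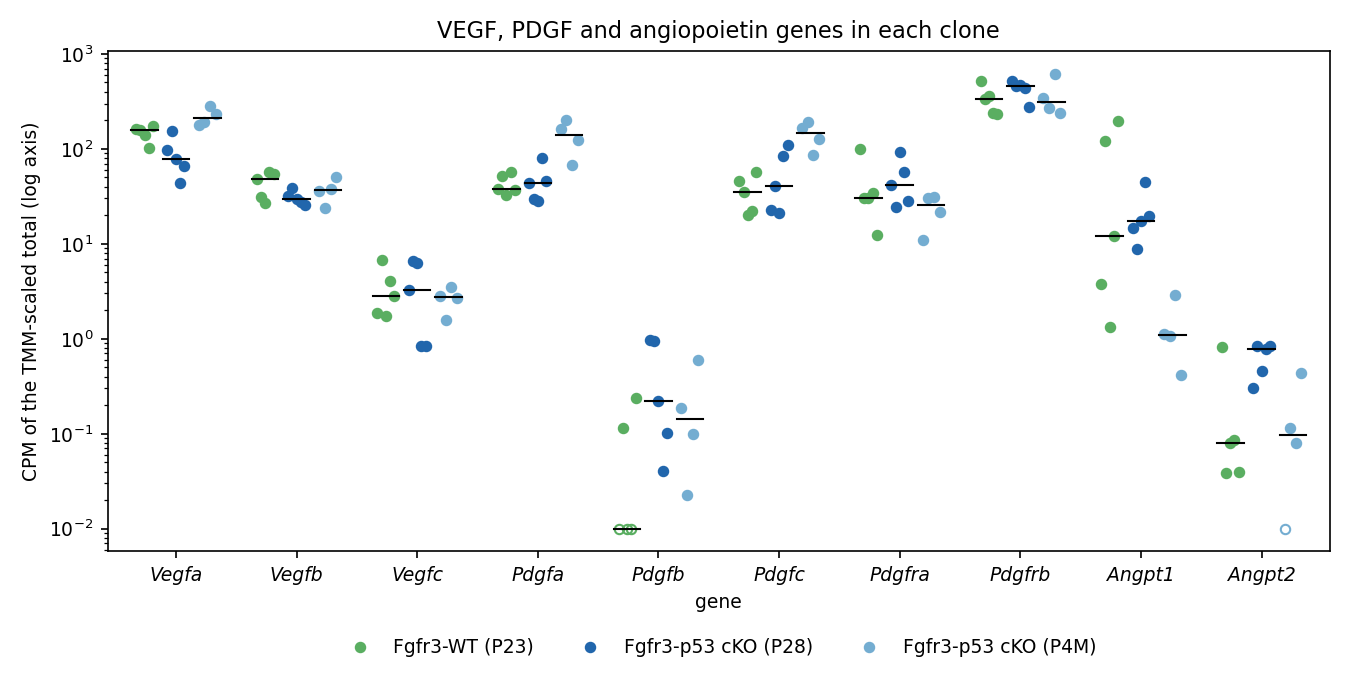
Each point is a clone, the y axis is CPM of the TMM-scaled library on a log axis, bars are group medians, and open points at the bottom stand for clones with a count of 0. The 4 P4M clones lie above all others for Vegfa, at 179 to 283 CPM, and Angpt1 spreads from 1.33 to 197 CPM among the 5 Fgfr3-WT clones.

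VEGF-A is the principal angiogenic ligand of its family. Its gene was highest in the P4M clones and lowest in the P28 clones, and the fitted fold between these cKO groups was 2.52. Vegfa (ENSMUSG00000023951, mm10 chr17:46016993-46032369, minus strand) was detected at 160, 156, 140, 103 and 176 CPM in the 5 Fgfr3-WT clones. The P28 clones had 97.0, 155, 79.1, 43.9 and 66.2 CPM, and the P4M clones 179, 191, 283 and 234 CPM. All 4 P4M clones were above every other clone, and 4 of the 5 P28 clones were below every Fgfr3-WT clone, with P28 replicate 2 inside the Fgfr3-WT range. Between the cKO groups Vegfa rose from 88.2 ± 41.9 CPM (SD, n = 5) to 222 ± 47.1 CPM (SD, n = 4), which was 1.33 as log2 fold change (SE 0.295, edgeR adjusted p = 0.0196). Ranges that do not overlap were found in 19% of the 17358 genes in this comparison. Against Fgfr3-WT neither cKO group passed the test. For P28 the log2 difference was -0.74 (SE 0.28, edgeR adjusted p = 0.051), and for P4M it was 0.59 (SE 0.294, edgeR adjusted p = 0.113). The P28 difference was called by DESeq2 (adjusted p = 0.0346), with RLE scaling (edgeR adjusted p = 0.05, just under the threshold before rounding) and on log2(TPM + 1) with limma (adjusted p = 0.0425). It was also called without P28 replicate 2 (edgeR adjusted p = 0.00486) and without Fgfr3-WT replicate 4 (edgeR adjusted p = 0.0377). The P4M difference was called when the fit held P4M and Fgfr3-WT clones alone (edgeR adjusted p = 0.0445) and without P28 replicate 2 (edgeR adjusted p = 0.0492). The mean of the cKO groups differed from Fgfr3-WT by -0.07 on the log2 scale, with an approximate 95% interval of -0.55 to 0.41, as the cKO groups lay on opposite sides of it.

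The rise of Vegfa between the cKO groups was smaller per length of transcript. In TPM its ranges were 62.4 to 134 in Fgfr3-WT, 32.8 to 118 in P28 and 103 to 156 in P4M clones, so that the cKO groups overlapped. On log2(TPM + 1) with limma the difference was 1.02 (SE 0.311, adjusted p = 0.0563). The counts behind 1 TPM of Vegfa, in log2 relative to the median gene of the same clone, averaged -0.16 in Fgfr3-WT, 0.09 in P28 and 0.30 in P4M clones, and did not overlap between the cKO groups. Of 10933 genes, 1.8% moved more than Vegfa in this measure between P4M and P28. The length by which the Vegfa counts were divided therefore differed between clones, and which of its transcripts were in use was not tested. The call was also lost without P4M replicate 3 (edgeR adjusted p = 0.0502) and without P4M replicate 4 (edgeR adjusted p = 0.0505).

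VEGF-B has milder angiogenic activity, and VEGF-C is the main ligand of lymphatic vessel growth. Vegfb was present in every clone, with 27.1 to 56.4 CPM (median 48.4) in Fgfr3-WT, 25.7 to 38.7 (median 29.9) in P28 and 23.9 to 50.7 (median 36.6) in P4M clones. No comparison of Vegfb passed the test, the lowest adjusted p being 0.11 for P28 against Fgfr3-WT (log2 fold change -0.50, SE 0.237, edgeR). Vegfc was low, at 0.845 to 6.70 CPM over all clones. The P28 clones split over that whole range, with replicates 2 and 3 at 6.60 and 6.34 CPM and replicates 4 and 5 at 0.846 and 0.845 CPM, and no comparison of Vegfc passed the test. Vegfa made up 47.3 to 73.3% of the summed TPM of the 3 ligands in Fgfr3-WT, 39.9 to 63.7% in P28 and 63.1 to 75.0% in P4M clones. Vegfb supplied nearly all the rest, with Vegfc at most 4.48%.

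PDGF-A, a ligand that acts mainly through PDGFRα, and PDGF-C, which must be cleaved by a protease before it can bind, are both made by mesenchymal tissues. Both genes rose in the P4M clones relative to Fgfr3-WT, Pdgfa 3.21 times and Pdgfc 3.93 times, and Pdgfa rose relative to the P28 clones as well. Pdgfa (ENSMUSG00000025856, mm10 chr5:138976014-138997370, minus strand) was at 38.0, 52.2, 32.3, 56.7 and 36.6 CPM in the Fgfr3-WT clones. The P28 clones had 43.7, 29.5, 28.2, 79.6 and 45.7 CPM, and the P4M clones 160, 203, 67.9 and 123 CPM. Every P4M clone exceeded every Fgfr3-WT clone, and 3 of 4 exceeded every P28 clone, with P4M replicate 3 below P28 replicate 4. Pdgfa rose from 43.1 ± 10.6 CPM (SD, n = 5) in Fgfr3-WT to 139 ± 57.2 CPM (SD, n = 4) in P4M clones, which was 1.68 as log2 fold change (SE 0.343, edgeR adjusted p = 0.00167). Against the P28 clones, at 45.4 ± 20.7 CPM (SD, n = 5), the rise was 1.61 on the log2 scale (SE 0.342, edgeR adjusted p = 0.0166). P28 and Fgfr3-WT clones differed by less than the spread between clones (log2 fold change 0.07, SE 0.322, edgeR adjusted p = 0.879). The call between the cKO groups was lost without P4M replicate 2 (log2 fold change 1.37, edgeR adjusted p = 0.0544).

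An annotated gene on the opposite strand, 6330403L08Rik, covers 813 of the 3119 exon bases of Pdgfa, or 26.1%. The kit used for the libraries does not mark strand, so reads from the shared bases cannot be assigned to either gene. The deposited counts of 6330403L08Rik were 254 to 550 in Fgfr3-WT, 556 to 925 in P28 and 1163 to 1541 in P4M clones, beside 798 to 1992, 1235 to 3953 and 3439 to 8920 for Pdgfa.

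Pdgfc (ENSMUSG00000028019, mm10 chr3:81036416-81214040, plus strand) was at 46.0, 34.7, 20, 22.2 and 57.4 CPM in the Fgfr3-WT clones. The P28 clones had 22.5, 41.1, 21, 85.0 and 111 CPM, and the P4M clones 164, 190, 86.2 and 127 CPM. The P4M clones were all above the Fgfr3-WT clones, while P28 replicates 4 and 5 exceeded every Fgfr3-WT clone and replicate 5 lay within the P4M range. Pdgfc rose from 36.1 ± 15.9 CPM (SD, n = 5) in Fgfr3-WT to 142 ± 45.1 CPM (SD, n = 4) in P4M clones, which was 1.98 as log2 fold change (SE 0.497, edgeR adjusted p = 0.00602). The difference of 1.34 between P4M and P28 did not pass (SE 0.49, edgeR adjusted p = 0.107), nor did that of 0.63 between P28 and Fgfr3-WT (SE 0.465, edgeR adjusted p = 0.299). Without P28 replicate 5 the difference between the cKO groups was 1.76 (edgeR adjusted p = 0.0437).

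Pdgfa and Pdgfc were the principal PDGF ligands in these clones, and the 2 genes lie on different chromosomes. Their summed TPM with Pdgfb was 40.2 to 67.7 in Fgfr3-WT, 46.8 to 149 in P28 and 111 to 298 in P4M clones. Pdgfa made up 58.5 to 84.2% of that sum in Fgfr3-WT, 48.4 to 79.4% in P28 and 61.2 to 69.5% in P4M clones. PDGF-B, which recruits pericytes to vessels and is typically released by endothelial cells and platelets, was close to absent. Pdgfb had 0, 3, 0, 0 and 6 counts in the Fgfr3-WT clones, and the 3 counts of 0 allow up to 0.0977, 0.121 and 0.0854 CPM. The P28 clones had 45, 40, 11, 2 and 4 counts and the P4M clones 8, 1, 5 and 32, so the highest clone reached 0.968 CPM. With no filter on low counts Pdgfb did not pass in P28 against Fgfr3-WT (log2 fold change 2.76, SE 1.16, edgeR adjusted p = 0.105).

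**Figure D2:**
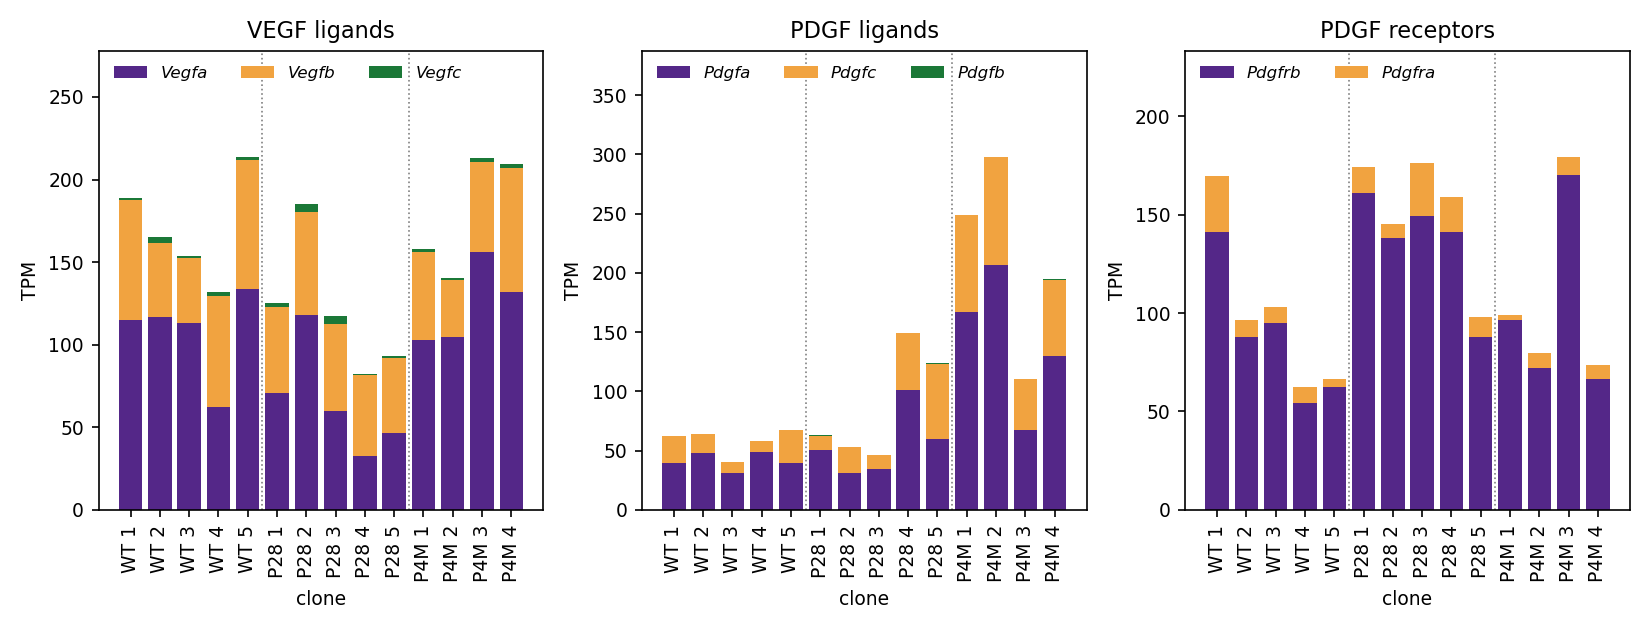
Stacked bars give the TPM of each gene in each clone, for VEGF ligands, PDGF ligands and PDGF receptors, with dotted lines between the groups. The summed PDGF ligands reach 111 to 298 TPM in the P4M clones, against 40.2 to 67.7 TPM in the Fgfr3-WT clones, and Pdgfrb fills most of each receptor bar.

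Both PDGF receptors were present in every clone, and neither passed the test in any comparison. Pdgfrb (ENSMUSG00000024620) was the more abundant, at 514, 338, 359, 241 and 233 CPM in Fgfr3-WT, 520, 462, 468, 441 and 273 CPM in P28 and 347, 270, 621 and 238 CPM in P4M clones. The 3 groups overlapped, and 4 of the 5 P28 clones lay above 4 of the 5 Fgfr3-WT clones. Against Fgfr3-WT the P28 clones differed by 0.36 on the log2 scale (SE 0.289, edgeR adjusted p = 0.345), with an approximate 95% interval of -0.21 to 0.93. For P4M it was 0.13 (SE 0.306, edgeR adjusted p = 0.751), with an interval of -0.47 to 0.73. Pdgfra (ENSMUSG00000029231), the receptor that also marks many mesenchymal progenitors, ranged from 12.4 to 100 CPM (median 30.5) in Fgfr3-WT, from 24.6 to 91.7 CPM (median 41.5) in P28 and from 11.1 to 30.9 CPM (median 25.9) in P4M clones. Its lowest adjusted p was 0.237, for P4M against Fgfr3-WT (log2 fold change -0.82, SE 0.548, edgeR). Pdgfrb made up 83.2 to 97.4% of the summed TPM of both receptors in every clone. The 9 markers of mural cells, which carry PDGFRβ in vivo, did not all move the same way between groups. Their summed level was 109 to 251 CPM in Fgfr3-WT, 1370 to 2940 CPM in P28 and 482 to 1140 CPM in P4M clones. Acta2, the largest part of the sum in P28 clones, was at 0.261 to 99.5 CPM in Fgfr3-WT, 1050 to 2710 CPM in P28 and 297 to 475 CPM in P4M clones. Cspg4 was at 104 to 159 CPM in Fgfr3-WT and 137 to 644 CPM in P4M clones. Rgs5 reached 60.4 CPM and Des 6.57 CPM in Fgfr3-WT, against at most 2.75 and 0.494 CPM in the cKO clones. Kcnj8 did not exceed 0.387 CPM in any clone. Of the 8 tested, 3 were higher in each cKO group and 1 was lower in P4M clones, beside 38.9% of all genes called in P28 and 45.9% in P4M clones.

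Angpt1 (ENSMUSG00000022309, mm10 chr15:42424723-42676977, minus strand), the stabilizing ligand of TIE2, was the most variable of the genes that were well detected. It was at 3.78, 121, 1.33, 12.0 and 197 CPM in the Fgfr3-WT clones, with a highest value 148 times the lowest. The P28 clones had 14.7, 8.89, 17.3, 44.3 and 19.5 CPM, and the P4M clones 1.13, 1.07, 2.88 and 0.413 CPM. The P4M clones were all below the P28 clones, and 3 of the 4 were below every Fgfr3-WT clone, while Fgfr3-WT replicates 1 and 3 were close to the P4M level. Angpt1 fell from 67.0 ± 88.3 CPM (SD, n = 5) in Fgfr3-WT to 1.37 ± 1.06 CPM (SD, n = 4) in P4M clones, which was -5.60 as log2 fold change (SE 1.38, edgeR adjusted p = 0.00531). The difference of -3.93 between P4M and P28 was not called (SE 1.27, edgeR adjusted p = 0.0744), although the groups did not overlap, and DESeq2 called it (adjusted p = 0.0016), as did edgeR without Fgfr3-WT replicate 1 or 3. On log2(TPM + 1) with limma the fall against Fgfr3-WT was -2.54 (adjusted p = 0.0462). P28 clones did not pass against Fgfr3-WT (log2 fold change -1.68, SE 1.04, edgeR adjusted p = 0.221).

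Angpt2 was near the limit of detection, at 0 to 0.845 CPM, and passed the filter on the counts of the P28 clones, which were 14, 35, 23, 39 and 33. Fgfr3-WT clones had 25, 1, 2, 3 and 1 counts, and P4M clones 0, 5, 4 and 23. No comparison passed. The log2 fold change of P28 against Fgfr3-WT was 1.56 (SE 0.898, edgeR adjusted p = 0.185). Without Fgfr3-WT replicate 1 it was 3.29 and was called, which is given as a description only, because the gene passed the filter through the P28 clones. For P4M the direction turned on that clone, with -0.44 when it was included (edgeR adjusted p = 0.742) and 1.31 when it was left out.

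Of the 9 genes tested, edgeR called none between P28 and Fgfr3-WT clones, beside 38.9% of all genes, 19.2% higher and 19.7% lower. Vegfa was the only member with an unadjusted edgeR value under 0.05 there. DESeq2 called 1 of the 9, a description only, as no share of all genes is given for DESeq2. Between P4M and Fgfr3-WT clones 3 were called, Pdgfa and Pdgfc upwards and Angpt1 downwards, beside 45.9% of all genes, 22.3% higher and 23.6% lower. Between P4M and P28 clones 2 were called, Vegfa and Pdgfa, both higher, beside 7.22% of all genes, 3.34% higher and 3.88% lower. With both cKO groups averaged, Pdgfa and Pdgfc were called higher and Angpt1 lower than in Fgfr3-WT, beside 48.8% of all genes, 23.1% higher and 25.7% lower. The test of any difference among the 3 groups called Vegfa, Pdgfa, Pdgfc and Angpt1, beside 50.6% of all genes. The median log2 fold change of the 9 genes was 0.07, -0.23 and -0.23 in the first 3 of these comparisons, and that of all genes -0.02, -0.06 and -0.01. Ranges did not overlap for Vegfa, Pdgfa and Pdgfc between P4M and Fgfr3-WT clones, where this held for 33.6% of all genes. Between P4M and P28 clones they did not overlap for Vegfa and Angpt1, where this held for 19% of all genes. For no member did they separate P28 from Fgfr3-WT or all cKO from Fgfr3-WT clones, where this held for 24.5% and 18.1% of all genes. The comparisons share clones, so that a low or high group enters 2 of them.

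**Figure D3:**
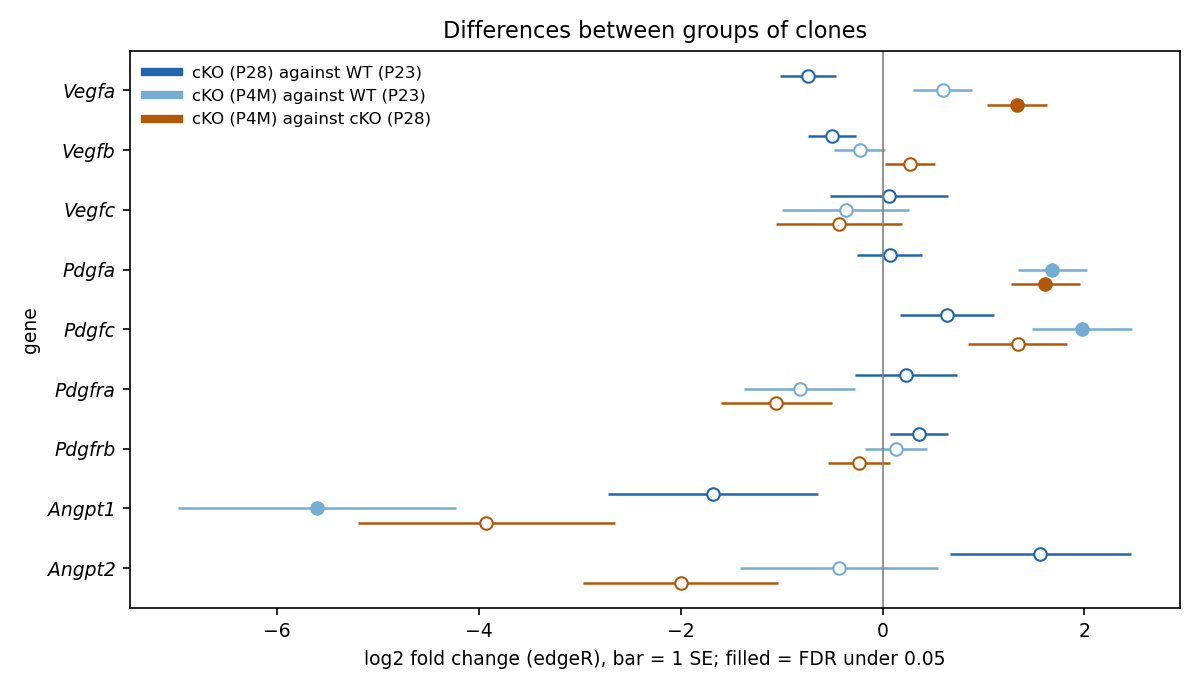
Points give the log2 fold change of each tested gene in 3 comparisons and bars 1 SE, with filled points at an FDR under 0.05. Filled points are Vegfa and Pdgfa for P4M against P28, with Pdgfa, Pdgfc and Angpt1 for P4M against Fgfr3-WT.

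Genes that complete these pathways were taken from a list of 19 ligands, receptors, co-receptors and processing enzymes, of which 17 were tested. Relative to Fgfr3-WT, 7 rose and 5 fell in the P4M clones, beside 45.9% of all genes called. In the P28 clones 4 rose and 3 fell, or 41.2% of the 17, which is near the 38.9% of all genes. Between the cKO groups 1 rose and 1 fell, beside 7.22% of all genes. With at least 10 counts required in every clone, 7, 4 and 1 of these genes were called in that order, and Flt1, Kdr, Flt4, Pgf and Ptprb were not tested. No share of all genes is given for that filter, so these counts are a description only. The medians of the 17 log2 fold changes were 0.47, 0.43 and -0.01 in that order. Among the genes that rose were Flt1, Kdr and Flt4 in both cKO groups and Ptprb in P4M clones, which passed the main filter through the cKO clones. The counts of genes that rose against Fgfr3-WT, and the medians, are therefore given no weight. Those not called in any of the 3 comparisons were Nrp1, Nrp2, Angpt4, Plat and Adamts3. Tek and Tie1, the receptors of the angiopoietin system, were not tested. Tek did not exceed 0.366 CPM in any clone.

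Among the further ligands, Pgf and Vegfd moved in opposite directions in the P4M clones. Pgf, encoding placental growth factor, a ligand of VEGFR1, was at 0.814, 0.842, 0.364, 1.82 and 0.633 CPM in Fgfr3-WT, 1.66, 0.885, 0.974, 2.90 and 1.18 CPM in P28 and 9.09, 12.2, 21 and 2.39 CPM in P4M clones. It rose by 2.87 on the log2 scale between the cKO groups (SE 0.591, edgeR adjusted p = 0.0151). Vegfd, the second lymphatic ligand, was at 11.8, 22.0, 7.65, 11 and 30.4 CPM in Fgfr3-WT, 35.1, 10.3, 35.1, 14.5 and 16.3 CPM in P28 and 0.946, 0.478, 2.27 and 2.07 CPM in P4M clones. All P4M clones were below every other clone. Vegfd fell by 3.94 on the log2 scale between the cKO groups (SE 0.614, edgeR adjusted p = 0.00589) and by 3.52 against Fgfr3-WT (SE 0.601, edgeR adjusted p = 0.000546). Pdgfd, whose product binds PDGFRβ, ranged from 0.782 to 26.2 CPM in Fgfr3-WT and from 35.1 to 84.0 CPM in P4M clones, a rise of 2.19 (SE 0.831, edgeR adjusted p = 0.0451), and lost the call in 8 of 14 fits that each left out 1 clone. Angpt4, a further ligand of TIE2, was at 0, 21.7, 14.4, 2.19 and 17.5 CPM in Fgfr3-WT, 16.6, 34.9, 7.16, 37.1 and 19.7 CPM in P28 and 31.7, 18.9, 28.9 and 22.8 CPM in P4M clones, and the groups overlapped.

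The VEGF receptor genes were lowest in the Fgfr3-WT clones, most of which held few or no reads of them. Flt1 (VEGFR1) lay at 0 to 0.162 CPM in Fgfr3-WT, 0.262 to 2.34 CPM in P28 and 1.01 to 5.91 CPM in P4M clones. Kdr (VEGFR2), the main signalling receptor for VEGF-A, lay at 0 to 0.569 CPM, 0.307 to 4.11 CPM and 2.59 to 12.6 CPM in the same order. Flt4 (VEGFR3), the receptor for VEGF-C and VEGF-D, lay at 0 to 0.939 CPM, 2.22 to 22.0 CPM and 1.41 to 6.60 CPM. The P4M clones were all above every Fgfr3-WT clone for each of the 3 genes, as were the P28 clones for Flt1 and Flt4, whereas for Kdr 1 P28 clone lay within the Fgfr3-WT range. The 3 genes passed the filter on low counts through the cKO clones and were left out when at least 10 counts were required in every clone. Their calls against Fgfr3-WT and their separation from it are therefore given no weight, and no fold change is given. Ranges did not overlap with Fgfr3-WT for 33.6% of all genes in P4M and 24.5% in P28 clones. On log2(TPM + 1) with limma the calls of Flt1 and Kdr in P28 and of Flt4 in P4M were lost (adjusted p = 0.0538, 0.101 and 0.091). The summed level of 10 endothelial markers, Kdr included, was 3.13 to 11 CPM in Fgfr3-WT, 4.55 to 9.44 CPM in P28 and 8.61 to 253 CPM in P4M clones, the highest value coming from Vwf. Pecam1 did not exceed 0.287 CPM, and Cdh5 and Cldn5 were at 0 throughout.

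The co-receptors Nrp1 and Nrp2, which bind VEGF-A and VEGF-C beside their role in axon guidance, were at 24.6 to 67.1 CPM and 414 to 1210 CPM over all clones. Pdgfrl, a receptor-like gene, fell by 3.21 in P4M against Fgfr3-WT (SE 0.945, edgeR adjusted p = 0.0139), from 4.24 to 139 CPM to 4.29 to 8.88 CPM, so that the ranges overlapped. That call was lost on log2(TPM + 1) with limma (adjusted p = 0.0607). Ptprb, which encodes the phosphatase that acts on TIE2, did not exceed 1.82 CPM, had at most 3 counts in a Fgfr3-WT clone and passed the filter through the cKO clones, so its call in P4M is given no weight.

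**Figure D4:**
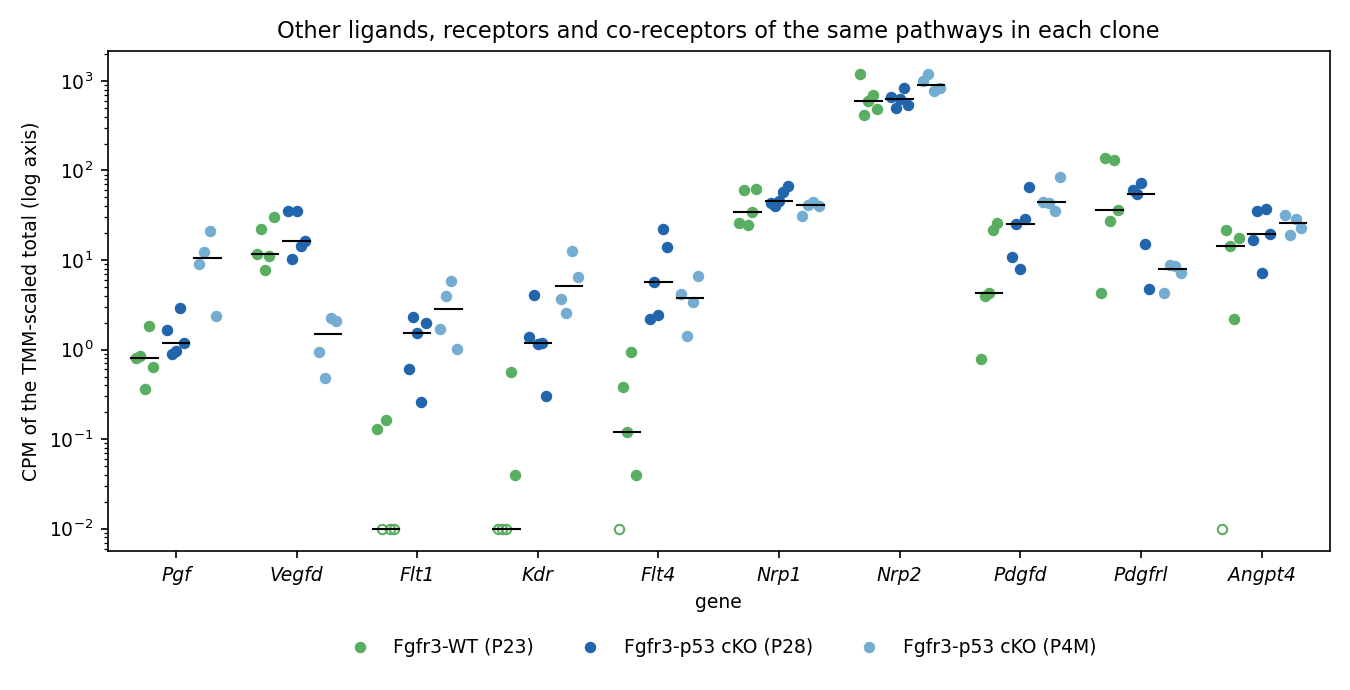
Each point is a clone, the y axis is CPM of the TMM-scaled library on a log axis, bars are group medians, and open points at the bottom stand for a count of 0. The 4 P4M clones lie at 0.478 to 2.27 CPM for Vegfd, below all other clones. The VEGF receptor genes Flt1, Kdr and Flt4, which passed the filter on low counts through the cKO clones, stay under 1 CPM in the Fgfr3-WT clones.

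Proteases that process these ligands moved in both directions. Plau, encoding urokinase, a plasminogen activator that can cleave PDGF-D, was at 0.326 to 8.51 CPM in Fgfr3-WT and at 11.7 to 52.7 CPM in the cKO clones, without overlap. It rose by 3.21 in P28 (SE 0.608, edgeR adjusted p = 0.00139) and by 2.56 in P4M clones (SE 0.611, edgeR adjusted p = 0.00444). Plat, encoding tissue plasminogen activator, which cleaves PDGF-C, was at 15.3 to 75.2 CPM over all clones and did not pass in any comparison. Furin, a convertase that cleaves precursors of PDGF-A, PDGF-B and VEGF-C, fell by 0.76 in P28 (SE 0.175, edgeR adjusted p = 0.0044) and by 0.89 in P4M (SE 0.188, edgeR adjusted p = 0.00201), from 74.4 to 137 CPM in Fgfr3-WT to 48.2 to 73.1 CPM in the cKO clones. Ccbe1, which helps ADAMTS3 cleave VEGF-C, fell in both cKO groups (edgeR adjusted p = 0.0186 in P28 and 0.0241 in P4M), and Adamts3 itself was at 0.0396 to 5.51 CPM. The P4M call of Ccbe1 was lost without Fgfr3-WT replicate 2 and without P4M replicate 1 or 3 (edgeR adjusted p up to 0.0632). Lrp1, encoding an endocytic receptor that interacts with PDGFRβ, fell by 0.57 in P28 (SE 0.187, edgeR adjusted p = 0.0266) and lost that call without scaling of the libraries and without Fgfr3-WT replicate 5 or P28 replicate 4 or 5. Its P4M call (edgeR adjusted p = 0.0449) was lost in 8 of 14 fits that each left out 1 clone.

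Because Vegfa is a classical target of hypoxia-inducible factors, its pattern was set beside a list of genes of that pathway, of which 17 were tested. Over the 17 genes, 10 fell and 1 rose from Fgfr3-WT to P28 clones, where 19.7% of all genes were lower and 19.2% higher. The genes that fell were Hif1a, Egln1, Egln2, Slc2a1, Bnip3, Pgk1, Pdk1, Ankrd37, Ldha and P4ha1, and Arnt, the partner subunit of the factors, rose. Of 14 fits that each left out 1 clone, the P28 call was lost in 9 for Slc2a1, 6 for Hif1a and 3 for Egln2, and these 3 calls were also lost without scaling, without the filter and with limma. In P4M against P28 8 rose and none fell, where 3.34% of all genes were higher and 3.88% lower. The genes that rose were Egln1, Egln3, Bnip3, Pgk1, Pdk1, Ankrd37, Ldha and P4ha1. Between P4M and Fgfr3-WT clones 4 rose, namely Arnt, Egln3, Pdk1 and Ndrg1, and 3 fell, namely Epas1, Egln2 and P4ha1. These 7 are 41.2% of the list, beside 45.9% of all genes, and leaving out 1 clone lost the call in 6 of 14 fits for Ndrg1, 4 for Pdk1, 4 for Epas1 and 1 for Egln3. The median log2 fold change of the list was -1.17 for P28 and -0.10 for P4M relative to Fgfr3-WT, and 1.15 between the cKO groups, beside -0.02, -0.06 and -0.01 over all genes.

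Pdk1, a kinase that restrains pyruvate entry into mitochondria, was at 64.6, 74.8, 54.9, 63.9 and 109 CPM in Fgfr3-WT, 34.6, 30.8, 24.0, 21.2 and 36.1 CPM in P28 and 89.8, 76.5, 222 and 163 CPM in P4M clones. All P28 clones were below every other clone, P4M replicates 3 and 4 were the highest, and P4M replicates 1 and 2 lay within the Fgfr3-WT range. Pdk1 rose by 2.23 on the log2 scale between the cKO groups (SE 0.31, edgeR adjusted p = 0.00365). Egln3, an oxygen-sensing prolyl hydroxylase, was at 7.77, 14.8, 84.7 and 18.0 CPM in the P4M clones and at 1.39 to 4.05 CPM in the P28 clones (log2 fold change 3.71, SE 0.866, edgeR adjusted p = 0.0246). Without P4M replicate 3 the call of Egln3 was lost (edgeR adjusted p = 0.0752). Among the 14 fits that left out 1 clone, the calls between the cKO groups were lost in 7 for Pgk1, 6 for Ldha, 4 for Egln3 and 2 for Egln1, and in none for Bnip3, Pdk1, Ankrd37 and P4ha1. On log2(TPM + 1) with limma the calls of Egln1, Pgk1, Ankrd37 and Ldha were lost (adjusted p = 0.056, 0.0717, 0.0594 and 0.0612). Hif1a and Epas1, which encode the oxygen-regulated subunits, were not called between the cKO groups (log2 fold changes 0.09 and -0.55, edgeR adjusted p = 0.86 and 0.704). RNA counts do not give the level or activity of these proteins. Oxygen tension and the density of the cultures are not in the labels, and their part in these values was not tested.

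**Figure D5:**
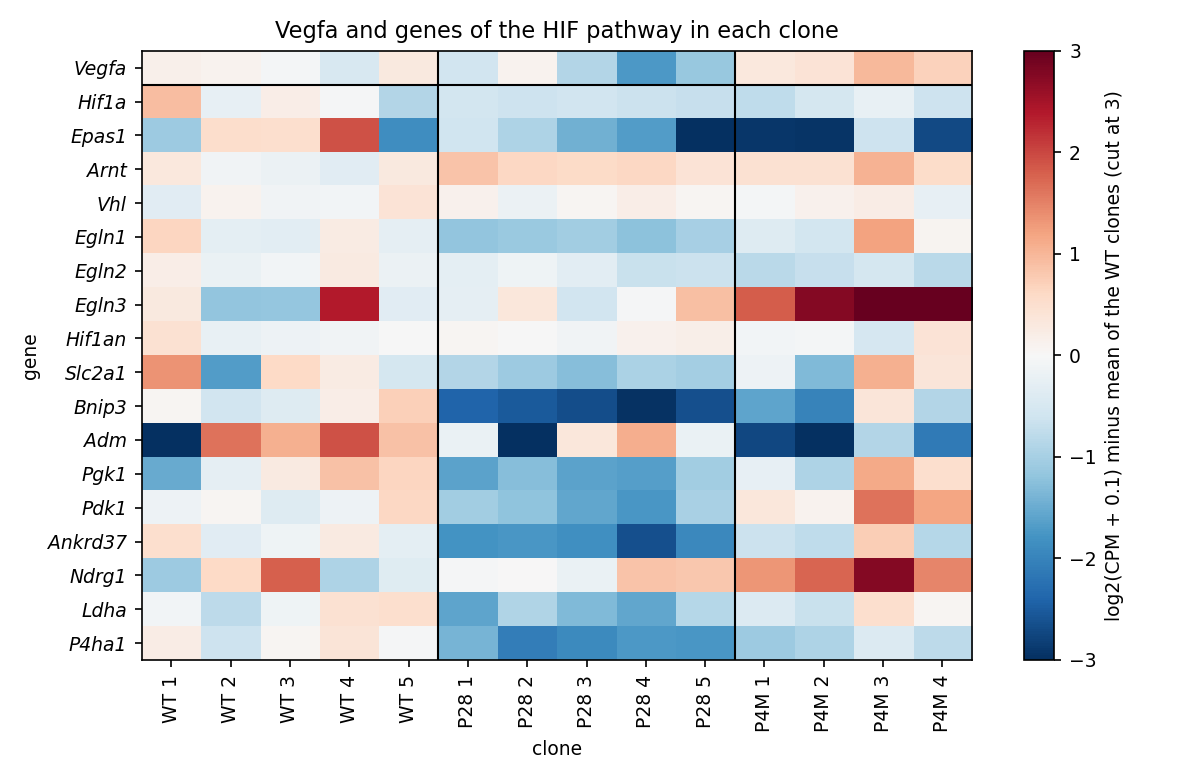
Colours give log2(CPM + 0.1) less its Fgfr3-WT mean, limited to 3 in either direction, for Vegfa in the top row and the 17 genes of the list below. Blue fills most of the target genes in the P28 clones, where 10 genes of the list fell, and red marks Pdk1, Egln3 and Ndrg1 in the P4M clones, most deeply in replicate 3 for Pdk1 and Ndrg1.

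To place the genes among others, the 3 genes with the most similar profile over the 14 clones were found for each, by the root mean square (RMS) difference of centred log2 CPM among 9660 genes. For Vegfa these were Rb1, Acp6 and Sesn2, at RMS differences of 0.344, 0.347 and 0.35, against a spread of 0.713 of Vegfa about its own mean. For Pdgfa they were Jak2, Stim2 and Tgfb1, at 0.418 to 0.453 against a spread of 0.874. Tgfb1, a growth factor gene, averaged 38.9, 45.4 and 122 CPM in Fgfr3-WT, P28 and P4M clones. For Pdgfc they included Myo19 and Hpcal1, at 0.487 and 0.545 against 1.1. The profiles most like Pdgfrb were those of Usp54, Elf1 and Zfp740 (0.204 to 0.298 against 0.459) and those most like Pdgfra were Gm42427, Nfat5 and Thra (0.544 to 0.592 against 0.869). For Angpt1 they were Gm2115, Gas6 and Vegfd, at 1.47 to 1.55 against 2.52, which is a loose likeness. Vegfb was closest to Naca, Mus81 and Ubtd1, Vegfc to Il6ra, Tgfb3 and Ghr, and Angpt2 to Nrn1, Mecom and Tonsl.

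Tested genes whose start lay within 2 Mb of each gene were examined for a shared shift. Around Vegfa, the median of 52 neighbours stood 0.117 to 0.285 above the Fgfr3-WT mean on the log2 scale in the P4M clones, and Vegfa itself 0.311 to 0.97. Their median log2 fold change between P4M and P28 was 0.05, beside 1.33 for Vegfa, and 2 of the 52 rose. Around Pdgfa the median of 54 neighbours was -0.126 to 0.139 in the P4M clones, beside 0.688 to 2.27 for Pdgfa. Around Pdgfc the 8 neighbours had medians of 0.156 to 0.492, beside 1.37 to 2.51 for Pdgfc, and around Angpt1 the 5 neighbours had medians of 0.306 to 0.735, beside -5.22 to -2.55 for Angpt1.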

How the data were processed

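RNA of 14 clones had been reverse transcribed with SMART-Seq v4. By their notes and methods, the authors aligned reads to mm10 with TopHat and Bowtie2 and counted non-ambiguous reads with HTSeq. The authors' raw count table lists 30503 genes as whole numbers that were not normalized, equal at every gene to the rounded deposited expected counts. The methods name no program for expected counts, so whether the raw counts are those of HTSeq cannot be told. TPM values were normalized per length by the authors. Deposited rlog, FPKM and depth-normalized values were not used.

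Genes were kept by filterByExpr, scaled by TMM and tested by the quasi-likelihood F-test of edgeR 4.0.16 (robust, R 4.3.3) in 1 model of 3 groups, with Benjamini-Hochberg adjustment over 17358 genes and an FDR of 0.05. The steps were tested on simulated data. Submission could not be a term. Alternatives were DESeq2 1.42.0, RLE and no scaling, no filter, at least 10 counts in every clone, rounded expected counts, only the groups compared, a fit that is not robust, leaving out each clone, and, added after seeing the data, limma 3.58.1 on log2(TPM + 1). Named were the members, Trp53, tested pathway genes, called hypoxia genes and the 3 nearest profiles among genes averaging 3 or more in log2 CPM (prior count 2). 6330403L08Rik was named after its values were seen. 1 of the nearest profiles is not reported here. The members and all lists were chosen with earlier results of these data known. Coordinates are from GENCODE M21.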

Additional observations from a re-analysis of the deposited data

Results flagged for a closer look

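In 27 sets of values of a gene in a group, the highest or lowest clone was set against the range of the group, and 2 clones stood apart, where chance gives about 1 in 20. Pdgfrb of P28 replicate 5, at 273 CPM, was the lowest of its group, with a gap of 0.744 of the group's range on the log2 scale. Angpt2 of Fgfr3-WT replicate 1, at 0.814 CPM or 25 counts, was the highest of its group, with a gap of 0.813 of the range.

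The edgeR test of P4M against P28, already given above, called 2 genes. Set as a difference of the fold changes against Fgfr3-WT, it is the same test, because the Fgfr3-WT clones cancel out. There was no Fgfr3-WT group of the P4M age, so it does not compare effects of genotype. For Vegfa the difference was 1.33 on the log2 scale (adjusted p = 0.0196, edgeR), with log2 fold changes against Fgfr3-WT of 0.59 in P4M and -0.74 in P28 clones. For Pdgfa it was 1.61 (adjusted p = 0.0166, edgeR), with log2 fold changes of 1.68 and 0.07 in the same order.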

How the results depend on the processing

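Over all alternatives, 777 log2 fold changes of the 9 tested genes kept their direction and side of the threshold, 17 gained a call, 12 lost one and 17 changed sign without being called. The rounded expected counts equal the main counts at every gene of the count table, so that alternative adds no separate check to these totals. In P28 against Fgfr3-WT none of the 9 genes was called, but 1 was with DESeq2, 1 with RLE scaling and 2 on log2(TPM + 1) with limma, and 0 to 1 when a clone was left out. In P4M against P28 leaving out a clone gave 1 to 3 calls instead of 2, with 1 without P4M replicate 2, 3 or 4. In all cKO against Fgfr3-WT the 3 calls became 1 with all cKO clones as 1 group. They became 1 to 3 when a clone was left out, with 1 without Fgfr3-WT replicate 3. No share of all genes is given for the alternatives, so these counts of calls are a description only. For P28 against Fgfr3-WT, Angpt1 changed sign with limma, to 0.013. Leaving out a clone there moved Vegfc between -0.311 and 0.448 (negative without Fgfr3-WT replicates 1, 3 and 5 and P28 replicates 2 and 3), Pdgfa between -0.252 and 0.188 (Fgfr3-WT replicate 3, P28 replicate 4) and Pdgfra between -0.141 and 0.831 (Fgfr3-WT replicate 5, P28 replicate 3). For P4M against Fgfr3-WT it moved Angpt2 between -1.68 and 1.308 (positive without Fgfr3-WT replicate 1), Vegfc between -0.537 and 0.02 (positive without Fgfr3-WT replicate 2) and Pdgfrb between -0.233 and 0.325 (negative without P4M replicate 3). For all cKO it moved Vegfa between -0.231 and 0.001 (positive without Fgfr3-WT replicate 5), Vegfc between -0.342 and 0.234 (positive without Fgfr3-WT replicate 2), Pdgfra between -0.53 and 0.316 (positive without Fgfr3-WT replicate 1) and Angpt2 between -0.055 and 2.3 (negative without P4M replicate 4). The cause was not tested. No paired analysis was possible because the labels give the clones no replicate numbers that groups share. Depth limits Pdgfb and Angpt2, which had at most 45 counts in a clone.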
